A study of Mus musculus with 4 samples.

Results

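The genes described here are 9 genes of bone morphogenetic protein (BMP) signaling, taken by symbol from the 45802 symbols of the deposited expression table. They are the ligands *Bmp2*, *Bmp4* and *Bmp6*, the receptors *Bmpr1a*, *Bmpr1b*, *Bmpr2* and *Acvr1*, and the antagonists *Grem1* and *Nog*. All 9 had a value in each of the 4 libraries, as did 14415 genes in total. The table holds quantile-normalized log2 signals of total RNA from 2 libraries of PDGFRα reporter+ and 2 libraries of PDGFRα reporter− periosteal cells. Both populations came from the femurs and tibias of male PDGFRα-mT/mG mice, 2 months old at tamoxifen (150 mg/kg per day over 5 d) and 9 to 10 weeks old when used. In these mice, CreER under the *Pdgfra* promoter switches a cell and its descendants from membrane tdTomato to membrane GFP once tamoxifen is given. Cells were taken 14 d after the last dose, pooled from 3 to 6 mice according to the labels (the methods of the study state a different number), grown for 1 passage with 10 ng/mL bFGF, and sorted. The sort kept cells negative for CD31, CD45 and Ter119, with GFP for reporter+ and tdTomato for reporter− cells. The reporter therefore records promoter activity at the time of tamoxifen, and the RNA was taken after culture.

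BMPs are secreted dimers that bind type I receptors (BMPR1A, BMPR1B, ACVR1) together with type II receptors such as BMPR2. The active type I receptor phosphorylates SMAD1, SMAD5 and SMAD9, which enter the nucleus with SMAD4 and switch on genes such as *Id1*. Gremlin 1 and noggin bind the ligands outside the cell and keep them from their receptors. In the periosteum the pathway is known for its part in bone formation and fracture healing.

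The columns of the table are headed by population and by a number, 2 or 3, whereas the sample titles count replicates 1 and 2. Each library is called here by its population and its heading number. What the number stands for is not written in the labels. A difference is given over all libraries and within each number. The linear unit under the logarithm and any scaling to transcript length are not stated, so that levels were not compared between genes, sums over a marker list weight its genes by an unstated scale, and the depth is unknown. Where a signal differs in bulk RNA, a change in the share of a cell type and a change in RNA per cell cannot be told apart. Each library came from a pool of animals, and whether the 2 pools of a population were prepared separately is not stated in the sources used here, so that p-values measure the spread between these libraries.

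Markers of the labelled cell type and of other cell types were examined. *Pdgfra* had log2 signals of 7.78 and 7.62 in reporter+ and 7.87 and 7.44 in reporter− libraries 2 and 3. All 11 periosteal stromal markers examined were listed in the 4 libraries. A listed value alone cannot establish the cell type, since 6 endothelial markers were also listed in every library. Of the stromal markers, 5 had a higher and 6 a lower mean in reporter+ cells, with a median difference of −0.07. Single stromal markers differed more, by 1.83 for *Lum*, 1.39 for *Dcn* and −1.14 for *Postn*. All 13 macrophage markers had a higher mean in reporter+ cells, and both populations had been sorted as CD45-negative. Their summed log2 signal was 7.96 and 8.19 in the reporter+ and 6.64 and 7.55 in the reporter− libraries. *Lyz2*, one of these markers, had 7.65 and 7.88 in the reporter+ and 6.27 and 7.25 in the reporter− libraries. All 6 endothelial markers listed in every library had a lower mean in reporter+ cells, with a median difference of −2.50 and, for *Cdh5* and *Pecam1*, differences of −4.26 and −3.19. Their summed signals were 1.36 and 1.68 in reporter+ and 1.67 and 2.66 in reporter− libraries, and *Egfl7* differed by −0.04. Of 7 smooth muscle and pericyte markers, 6 had a lower mean in reporter+ cells, with summed signals of 2.72 and 4.71 against 4.62 and 5.34. Of 4 erythroid markers, 2 had no value in any library and none had a value in the reporter− libraries. None of the markers passed the test described next.

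No member differed between the populations by the test. By limma (Benjamini-Hochberg adjustment, 14415 genes), 0 of the 9 members had an adjusted p under 0.05 and 0 an unadjusted p under 0.05. The background was 0% of all genes by adjusted p and 0.909% (131 genes) by unadjusted p. The adjusted p was 1 for each member. With the heading number as a replicate block, 0 members had an adjusted p under 0.05 (0.201% of all genes) and 2, *Grem1* and *Bmp6*, had an unadjusted p under 0.05 (6.33% of all genes). The blocked fit leaves a single residual degree of freedom per gene. Every interval given below with the block therefore leans on the variance that limma shares across genes. The block was not run without the variance trend. With 2 libraries per population, an exact two-sided permutation test of a single gene cannot give less than 0.333. Of the members, 4 had a higher and 5 a lower mean in reporter+ cells, and the median difference was −0.09 on the log2 scale, compared with −0.0035 over all genes. This median was 0.05 without reporter+ library 2 and −0.13 without reporter− library 2. It was 0.07 when members with a mean log2 signal below 0 were removed. Populations overlapped for all 9 members, beside 15.7% of all genes whose populations did not overlap (7.59% with reporter+ above and 8.1% with reporter+ below).

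**Figure D1:**
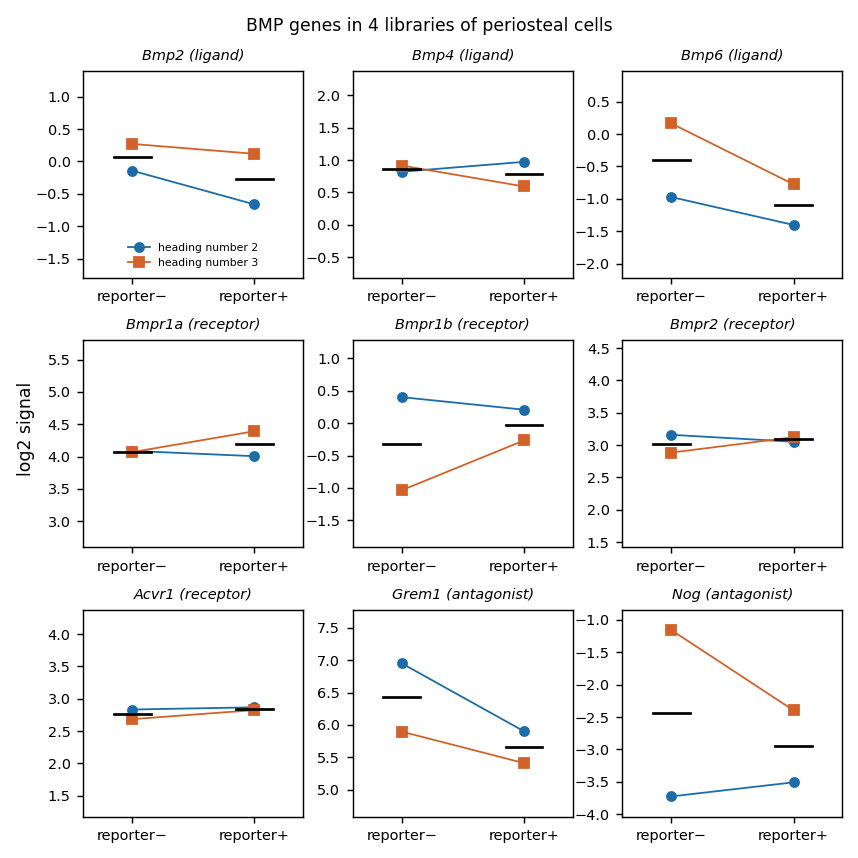
Log2 signal of each BMP gene in the 4 libraries, with reporter− on the left and reporter+ on the right of each panel, lines joining libraries with the same heading number and black bars at the population means (n = 2). Every panel spans the same log2 range, so that *Acvr1* and *Bmpr2* appear flat, *Grem1* slopes down for both numbers, and *Nog* is set apart mainly by number.

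*Grem1* (chromosome 2, 113746164 to 113758646, minus strand), the gene of the secreted BMP antagonist gremlin 1, had the largest difference between populations among the members. Its log2 signal was 5.90 and 5.41 in reporter+ libraries 2 and 3, and 6.95 and 5.90 in reporter− libraries 2 and 3. The highest reporter+ library lay 0.00535 above the lowest reporter− library, so that the populations touched but were not fully apart. The means were 5.66 ± 0.35 (SD, n = 2) in reporter+ and 6.42 ± 0.75 in reporter− cells, which differed by −0.77 (log2, SE 0.41, 95% interval −1.87 to 0.34). On the linear scale this was a 1.70-fold lower signal in reporter+ cells. The 95% interval with the number as a block was −1.11 to −0.42, with an adjusted p of 0.116 (limma). That interval lay below 0 but has the limits of the blocked fit given above. Within number 2 the signal was 2.07-fold lower (−1.05) and within number 3 it was 1.40-fold lower (−0.49). A lower value within both numbers was found for 24.8% of all genes. When 1 library at a time was removed, the log2 fold change of *Grem1* ranged from −1.30 to −0.24, the latter without reporter− library 2. The macrophage, endothelial and smooth muscle markers given above also differed between the populations, and their part in the *Grem1* values was not tested.

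The 250 bases before the RefSeq start of *Grem1* and of *Bmp6* are shown because these 2 members had the largest differences between populations. They are RefSeq promoter windows on GRCm38.p6, the build named in the submitters' processing notes, at chr2:113758649-113758898 (minus strand) and chr13:38345466-38345715 (plus strand). The *Bmp6* window lies inside the gene as GENCODE M21 draws it, since that annotation begins the gene further upstream than the RefSeq start. A window was given for 7 of the 9 members, not for *Bmp2* or *Nog*. Capitals mark 2 motifs that SMAD proteins are known to bind, GGCGCC, which reads the same on both strands, and CAGAC or its complement GTCTG.

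Grem1: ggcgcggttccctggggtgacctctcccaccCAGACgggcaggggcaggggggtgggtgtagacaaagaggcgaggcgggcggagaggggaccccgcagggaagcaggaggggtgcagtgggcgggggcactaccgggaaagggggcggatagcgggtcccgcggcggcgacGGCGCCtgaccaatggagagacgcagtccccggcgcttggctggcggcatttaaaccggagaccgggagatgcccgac

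Bmp6: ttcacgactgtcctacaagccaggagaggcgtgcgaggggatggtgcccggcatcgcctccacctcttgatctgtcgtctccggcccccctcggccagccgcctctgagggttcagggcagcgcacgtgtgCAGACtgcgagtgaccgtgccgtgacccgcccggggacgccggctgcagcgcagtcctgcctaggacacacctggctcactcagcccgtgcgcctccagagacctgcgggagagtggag

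In the *Grem1* window, GGCGCC begins 78 bases and CAGAC 219 bases before the start. The *Bmp6* window holds CAGAC 119 bases before the start and no GGCGCC. No 2 matches overlapped. Among 32851 promoter windows of this length, 9.59% hold GGCGCC and 42.2% hold CAGAC on either strand, so that the second motif is common. Of the other members with a window, *Bmpr2* and *Bmpr1a* hold GGCGCC, 2 of the 3 windows of *Bmpr1b* hold CAGAC on either strand, and *Acvr1* and *Bmp4* hold neither motif. The GC content was 72.0% for *Grem1* and 68.8% for *Bmp6*, above the median of 52.4% over all windows. A match of letters is a description and does not show that a protein binds there.

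*Nog* (chromosome 11, 89300638 to 89302332), the gene of noggin, had its 4 log2 signals spread over 2.57 units. They were −3.51 and −2.40 in reporter+ libraries 2 and 3, and −3.73 and −1.16 in reporter− libraries 2 and 3. The low values were those of the libraries numbered 2 in both populations, and the single highest was reporter− library 3. The log2 fold change was −0.51 (SE 1.04, 95% interval −3.29 to 2.27). Within number 2 the reporter+ library was higher by 0.22 and within number 3 it was lower (−1.24). The log2 fold change of *Nog* turned to 0.04 without reporter+ library 2 and to 0.77 without reporter− library 3.

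Of the ligands, *Bmp2* (chromosome 2, 133552159 to 133562885), an inducer of bone formation needed for fracture repair to begin, had log2 signals of −0.66 and 0.12 in reporter+ and −0.14 and 0.27 in reporter− libraries 2 and 3. Each reporter+ library was below the reporter− library of its number, with differences of −0.52 and −0.15. The log2 fold change was −0.34 (SE 0.41), smaller than its standard error. It was 0.05 when reporter+ library 2 was left out.

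*Bmp6* (chromosome 13, 38345107 to 38500302), a ligand that also controls iron balance through hepcidin, had log2 signals of −1.40 and −0.78 in reporter+ and −0.97 and 0.17 in reporter− libraries 2 and 3. It was lower in the reporter+ library within both numbers, with differences of −0.43 and −0.94. The log2 fold change was −0.69 (SE 0.55, 95% interval −2.14 to 0.77, and −1.36 to −0.017 with the block, adjusted p = 0.778, limma), a 1.61-fold lower signal. It was −0.28 when 1 was added to the linear signal before taking logarithms, and −0.12 when reporter− library 3 was left out. In GENCODE M21 the gene overlaps *Txndc5* on the other strand. *Txndc5* had log2 signals of 6.27 and 6.28 in reporter+ and 6.32 and 6.34 in reporter− libraries 2 and 3, a log2 fold change of −0.05. Any part of *Txndc5* reads in the *Bmp6* values was not tested. Whether reads were counted by strand is not stated in the sources used here.

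*Bmp4* (chromosome 14, 46383520 to 46390669), the closest relative of *Bmp2*, had log2 signals of 0.97 and 0.59 in reporter+ and 0.82 and 0.92 in reporter− libraries 2 and 3. The reporter− libraries lay between the 2 reporter+ libraries. The difference was 0.15 within number 2 and −0.32 within number 3, giving a log2 fold change of −0.09 (SE 0.27, 95% interval −0.79 to 0.62).

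Of the receptors, *Acvr1* (chromosome 2, 58388644 to 58567157), the gene of the type I receptor ALK2, had log2 signals of 2.87 and 2.82 in reporter+ and 2.83 and 2.68 in reporter− libraries 2 and 3, within 0.18 units of each other. Its log2 fold change was 0.09 (SE 0.16, 95% interval −0.33 to 0.50), and it was higher in the reporter+ library within both numbers, by 0.03 and 0.14. *Acvr1* was the only member higher within both numbers, as were 22.1% of all genes.

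*Bmpr2* (chromosome 1, 59763400 to 59879014), the type II receptor, had log2 signals of 3.05 and 3.12 in reporter+ and 3.16 and 2.88 in reporter− libraries 2 and 3. Its log2 fold change was 0.07 (SE 0.17, 95% interval −0.39 to 0.52), with −0.11 within number 2 and 0.24 within number 3. *Bmpr1a* (chromosome 14, 34410734 to 34503341), a type I receptor used by BMP2 and BMP4, had 4.01 and 4.39 in reporter+ and 4.09 and 4.07 in reporter− libraries 2 and 3. Here reporter+ library 3 stood above the other 3 libraries. The log2 fold change of *Bmpr1a* was 0.12 (SE 0.18, 95% interval −0.37 to 0.61). For these 3 receptors the interval stayed within 1 on the log2 scale, a factor of 2, in either direction. It covers only the spread between these libraries, 2 per population, and uses variance that limma shares across genes. A larger difference between the populations is therefore not excluded.

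*Bmpr1b* (chromosome 3, 141837136 to 142169425), the type I receptor best known from cartilage and digit formation, had log2 signals of 0.21 and −0.27 in reporter+ and 0.40 and −1.04 in reporter− libraries 2 and 3, and the lowest library was reporter− library 3. The log2 fold change was 0.29 (SE 0.59, 95% interval −1.27 to 1.85). It combined −0.19 within number 2 with 0.77 within number 3, and turned to −0.43 without reporter− library 3. Opposite signs within the 2 numbers were found for 5 of the 9 members and for 53.2% of all genes.

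**Figure D2:**
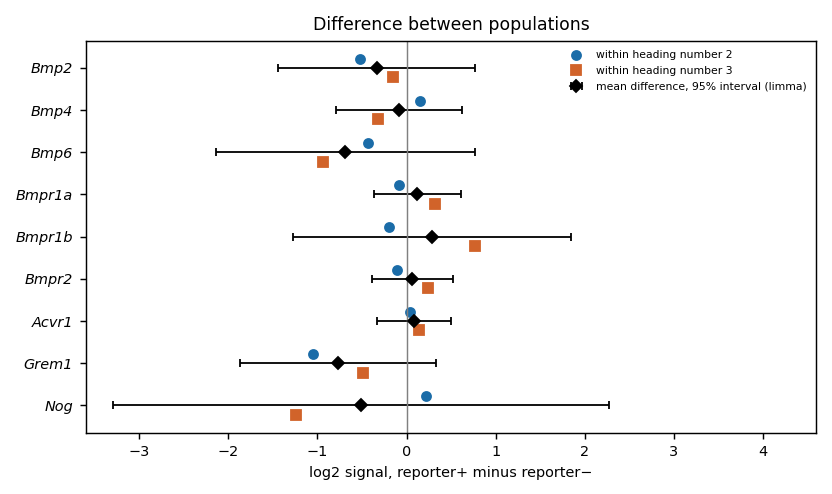
Difference in log2 signal between reporter+ and reporter− libraries for each BMP gene, as the mean difference with its 95% interval from limma (diamonds, n = 2 per population) and as the difference within heading number 2 (circles) and 3 (squares). All 9 intervals, from the fit without the block, include 0, and both within-number values lie below 0 for *Bmp2*, *Bmp6* and *Grem1*.

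For all 9 members, the difference between the libraries headed 3 and 2 was larger in size than the difference between the populations, which was so for 75.7% of all genes. For *Grem1* the 2 differences were about equal in size (−0.77 and −0.77). The median size of the difference between numbers was 0.60 over the members and 0.31 over all genes. In a limma model with population and number, 3 members had an adjusted p under 0.05 for number (33.3% of the members, beside 21.3% of all genes). Of these, *Nog* rose by 1.84 (SE 0.49, adjusted p = 0.0294), a 3.59-fold higher signal in libraries headed 3. Its signals were low, and all but that of reporter− library 3 lay below the lower quartile of listed signals (−1.47). With a pseudocount of 1 the rise of *Nog* was 0.28. *Grem1* fell by 0.77 (SE 0.15, adjusted p = 0.00753) and *Bmpr1b* fell by 0.96 (SE 0.30, adjusted p = 0.0498). Higher calls made up 11.5% and lower calls 9.79% of all genes. The 2 antagonists therefore differed in opposite directions between the numbers, and each did so in both populations. The calls rest on a single residual degree of freedom per gene and were lost in 4 alternative settings each. In limma with the same prior variance for every gene, 0 genes were called for number, beside 21.3% with a prior variance that follows the mean, and the adjusted p was 0.154 for *Grem1*, 0.130 for *Nog* and 0.186 for *Bmpr1b*.

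*Bmp6* and *Bmp2* also had higher signals in the libraries headed 3, by 0.88 (SE 0.30, adjusted p = 0.0644, limma) and 0.60 (SE 0.25, adjusted p = 0.128), with both libraries headed 3 above both headed 2. The numbers did not overlap for 6 of the 9 members (*Bmp2*, *Bmp6*, *Nog*, *Bmpr1b*, *Acvr1* and *Grem1*), beside 65.2% of all genes. For *Grem1* and *Acvr1* they were barely apart. The lowest library headed 2 and the highest headed 3 had 5.901 and 5.896 for *Grem1*, and 2.833 and 2.825 for *Acvr1*. The differences between numbers were smaller for *Acvr1* (−0.10), *Bmpr2* (−0.10), *Bmp4* (−0.14) and *Bmpr1a* (0.18). Among the marker lists, the median difference between numbers was −1.93 for chondrocyte, 0.88 for smooth muscle and pericyte, 0.73 for osteoblast, 0.61 for macrophage, 0.52 for endothelial and −0.11 for periosteal stromal markers. Single markers differed widely within a list. Periosteal stromal markers ran from −0.54 for *Prrx1* to 3.03 for *Postn*, and chondrocyte markers from −3.54 for *Acan* to 0.18 for *Comp*. The part of these cell types in the differences of the members between numbers was not tested.

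**Figure D3:**
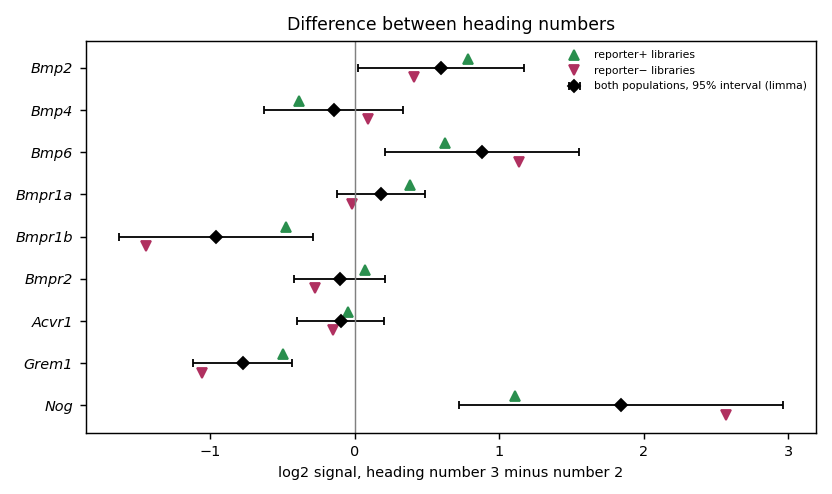
Difference in log2 signal between libraries headed 3 and 2 for each BMP gene, within reporter+ (upward triangles) and reporter− cells (downward triangles) and over both with the 95% interval from limma (diamonds). *Nog*, *Bmp6* and *Bmp2* lie to the right of 0 and *Grem1* and *Bmpr1b* to the left in both populations.

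*Nog* and *Bmp6* had the widest range over the libraries, and genes with the most similar pattern were sought for them. Likeness was the Euclidean distance between log2 signals centered on the mean of each gene over 4 libraries, among 10224 candidate genes whose mean log2 signal was 0 or more. The nearest to *Bmp6* were *Sort1* (distance 0.106), *Gsn* (0.243) and *Pla2g16* (0.261). *Nog* was less closely matched, with *G0s2* (0.496), *Tnxb* (0.500) and *Prss12* (0.595) nearest. With 4 libraries such matches are a description only.

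Other genes of the pathway were examined in 5 lists of 55 genes, of which 46 had a value in all libraries. None had an adjusted p under 0.05 between the populations (limma), and 1 had an unadjusted p under 0.05, beside 0.909% of all genes. With the heading number as a replicate block, 8 of the 46 had an unadjusted p under 0.05 (17.4%, beside 6.33% of all genes) and 0 an adjusted one. Among the 11 other BMP and GDF ligands, *Bmp10* and *Gdf2* had no value in any library, and 3 of the 7 ligands with all values had a higher and 4 a lower mean in reporter+ cells. *Bmp5* was the only one with a mean of at least 0, with a log2 fold change of 0.21 (SE 0.49). *Bmp7*, a ligand that induces bone, was the gene with the unadjusted p under 0.05 (0.041) and is named for that. Its log2 signals were −2.87 and −3.87 in reporter+ and −1.66 and −1.86 in reporter− libraries 2 and 3, a log2 fold change of −1.61 (SE 0.57, unadjusted p = 0.0053 and adjusted p = 0.311 with the block). Both reporter+ libraries lay below both reporter− libraries, and every *Bmp7* signal lay below the lower quartile of listed signals (−1.47).

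Of the other receptors and co-receptors, 3 had a higher and 4 a lower mean in reporter+ cells, and the median difference was −0.06. Without reporter+ library 3, the count was 4 higher and 3 lower. *Acvrl1*, the gene of the endothelial type I receptor ALK1, had the largest difference (−0.43, SE 0.23). Its log2 signals were 2.52 and 2.03 in reporter+ and 2.67 and 2.74 in reporter− libraries 2 and 3, so that the populations did not overlap. *Bambi*, a decoy receptor that is itself switched on by BMP signaling, had a log2 fold change of 0.40 (SE 0.46). Values were smaller for the co-receptor genes *Rgma* (−0.11), *Rgmb* (−0.10) and *Eng* (−0.06). The endothelial markers, which also had lower means in reporter+ cells, are given above, and their part in the *Acvrl1* values was not tested.

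The list of other antagonists and modulators had 8 higher and 6 lower means, with a median difference of 0.01. The count was 6 higher and 8 lower without reporter+ library 3, and 7 higher and 7 lower with median centering. The antagonist gene *Chrdl1* had log2 signals of 1.40 and 1.54 in reporter+ and 1.04 and 0.52 in reporter− libraries 2 and 3. Its log2 fold change of 0.69 (SE 0.28, 95% interval −0.05 to 1.44) was opposite in sign to that of *Grem1*, and its interval with the block was 0.21 to 1.18 (adjusted p = 0.404, limma). *Bmper*, which binds BMPs outside the cell, differed by 0.48 between populations (SE 1.05, and 0.12 with the block, where the adjusted p was 0.249) and rose by 2.19 in the libraries headed 3 (adjusted p = 1.5e-05, limma). *Fst* and *Crim1* had log2 fold changes of −0.21 and −0.20. *Sostdc1* and *Cer1* had no value in any library.

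Of the SMAD genes and the ubiquitin ligase genes that control their turnover, 1 had a higher and 7 a lower mean in reporter+ cells, and the median difference was −0.12. The count was 4 higher and 4 lower when reporter− library 2 was left out. The difference was close to 0 for the BMP-responsive *Smad1* (−0.03, SE 0.16) and *Smad5* (0.06, SE 0.18). The inhibitory SMAD genes *Smad6* and *Smad7* had log2 fold changes of −0.20 (SE 0.17) and −0.19 (SE 0.24), and *Smurf1* had −0.23 (SE 0.17). *Smurf2* had −0.06 (SE 0.14). By limma, 0 of the 8 genes were called for number, beside 21.3% of all genes. In the other lists, the calls for number were 8 of 14 antagonists and modulators and 3 of 10 target genes. They were 2 of 7 for the other ligands and 1 of 7 for the other receptors and co-receptors.

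The BMP target genes had 3 higher and 7 lower means in reporter+ cells, and the median difference was −0.10. *Id1*, a direct target of BMP signaling and inhibitor of differentiation factors, had log2 signals of 2.46 and 2.65 in reporter+ and 2.13 and 3.57 in reporter− libraries 2 and 3. It was higher in the reporter+ library within number 2 by 0.33 and lower within number 3 (−0.92), which gave a log2 fold change of −0.29 (SE 0.51). *Id2* had differences of 0.15 and −0.52 within the numbers, and *Id3* 0.13 and −0.26. *Atoh8*, a transcription factor gene induced by BMP signaling, had 0.14 and −0.27. The same pair of signs was found for 6 of the 10 target genes, compared with 28.2% of all genes, and *Nog* and *Bmp4* among the members shared it. Reporter− library 3 was the highest of the 4 libraries for 7 of the 10 target genes, compared with 29.1% of all genes, and for the members *Bmp2*, *Bmp6* and *Nog*. This count was chosen after the values were seen. With reporter− library 3 left out, 7 target genes had a higher and 3 a lower mean in reporter+ cells, the reverse of the count over all libraries. A shift this way follows from removing the library that was highest for most of these genes. It also leaves reporter− library 2 alone, and 8 of the 10 target genes were higher in the libraries headed 3. The reversed count therefore adds nothing on the populations.

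**Figure D4:**
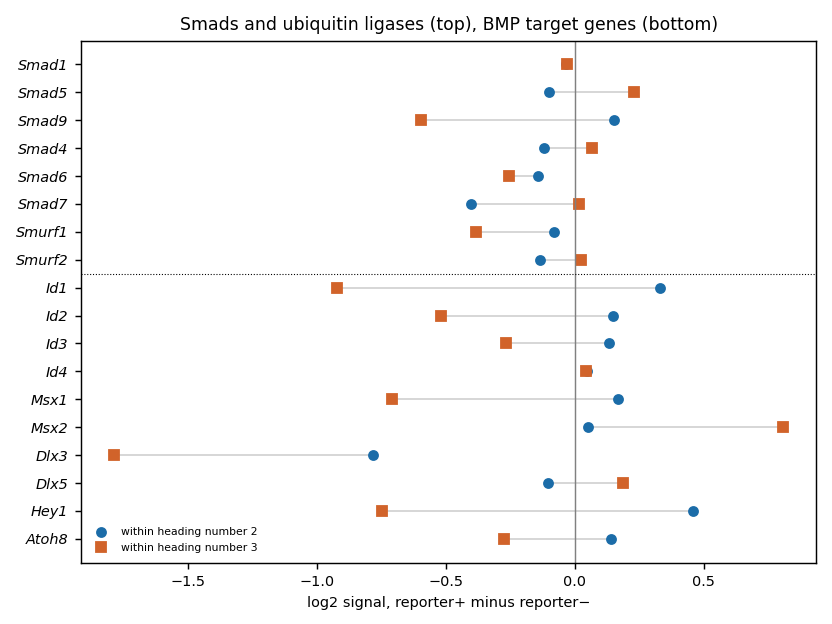
Difference in log2 signal between the reporter+ and reporter− library of heading number 2 (circles) and 3 (squares), for SMAD and ubiquitin ligase genes above the dotted line and BMP target genes below it. *Id1*, *Id2*, *Id3*, *Msx1*, *Hey1* and *Atoh8* lie above 0 for number 2 and below 0 for number 3.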

How the data were processed

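Per the labels, total RNA was made into stranded paired-end libraries, and bcl2fastq 2.17.1.14, Partek 7.0 and GRCm38.p6 are named in the submitters' processing notes. The aligner, counting, annotation and filters are not given in the sources used here. The authors deposited 1 log2 value per gene symbol and library after quantile normalization, with a blank where no signal was listed. The lowest value, quartiles and highest value were checked and matched between the 4 libraries, rounding aside. No counts were given, so that the depth and the counting error are unknown.

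Genes lacking a value in any of the 4 libraries were left out, and the remaining 14415 were fitted with limma 3.58.1 in R 4.3.3 (lmFit, eBayes with a variance trend, two-sided, Benjamini-Hochberg adjustment, threshold 0.05), without a block. The difference between heading numbers came from a model with population and number. The models were tested on simulated data. Alternatives were the number as a replicate block, a pseudocount of 1, blanks set to the lowest value, a filter at a mean of 0, median centering, no variance trend, and leaving out each library. For the difference between numbers, a model with no population term took the place of the block. Summaries used Python 3.11.15, numpy 2.4.6 and pandas 2.3.3, and plots matplotlib 3.10.9. Positions are from GENCODE M21 on GRCm38.

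All 9 members are named. From each of 5 pathway lists, at most 5 genes were named, those with the largest log2 fold change in size and a mean log2 signal not below 0, with fixed genes such as *Id1* and *Smad1* added. Other genes are named for the reason given beside them. A gene that this rule would name is not reported here. The members and lists were chosen with earlier results of these data known, and lists are described by counts and medians only.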

Additional observations from a re-analysis of the deposited data

How the results depend on the processing

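The log2 fold changes of *Bmp6*, *Acvr1* and *Grem1* kept their sign in every setting run, with ranges of −1.26 to −0.12, 0.013 to 0.16 and −1.30 to −0.24 over the libraries left out in turn. For the other members those values ranged from −0.73 to 0.054 for *Bmp2*, −0.28 to 0.10 for *Bmp4*, −0.072 to 0.31 for *Bmpr1a*, −0.43 to 1.01 for *Bmpr1b*, −0.073 to 0.20 for *Bmpr2* and −1.80 to 0.77 for *Nog*. Leaving out 1 library unbalances the heading numbers. The same step left the difference between numbers in a single population, from −0.38 to 0.10 for *Bmp4*, −0.019 to 0.39 for *Bmpr1a* and −0.28 to 0.071 for *Bmpr2*. For the members called between numbers it ranged from −1.44 to −0.48 for *Bmpr1b*, −1.05 to −0.49 for *Grem1* and 1.11 to 2.57 for *Nog*. With the pseudocount, the difference between populations was −0.15 for *Bmp2*, −0.052 for *Bmp4*, 0.096 for *Bmpr1b* and −0.13 for *Nog*. No member was called between populations in any setting.

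With the number as a replicate block, 29 genes (0.201%) had an adjusted p under 0.05 between populations, 22 higher and 7 lower, and no member was among them (*Grem1* adjusted p = 0.116, unadjusted 0.00071; *Bmp6* 0.778 and 0.046). With the block, 6.33% of all genes had an unadjusted p under 0.05. The pairing rests on the number alone, and the blocked fit leaves a single residual degree of freedom per gene. Across genes, deviations from the population means correlated by 0.681 for libraries sharing a number.

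Genes called between numbers were 1825 with the pseudocount, 1256 with blanks filled and 0 without the variance trend, compared with 3065. The pseudocount left −0.44 for *Bmpr1b* (adjusted p = 0.0879), −0.76 for *Grem1* (0.0522) and 0.28 for *Nog* (0.0943). Blanks filled, no population term and no variance trend left the values at −0.96 for *Bmpr1b*, −0.77 for *Grem1* and 1.84 for *Nog*, with adjusted p-values of 0.0695 to 0.208. The cause was not tested.

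With genes of a mean below 0 removed, other ligands had 1 higher and 0 lower, and target genes 0 higher and 4 lower, as fewer genes remained. This filter left no value for *Bmp2*, *Bmp6*, *Bmpr1b* or *Nog*. With each library left out, SMAD and ubiquitin ligase genes had 1 to 4 higher and 4 to 7 lower, and target genes 2 to 7 higher and 3 to 8 lower.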
